A study of Rattus norvegicus with 22 samples.

Results

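The matricellular proteins described here are 10 secreted proteins encoded by Ccn1, Ccn2, Thbs1, Thbs2, Tnc, Spp1, Postn, Sparc, Fbln2 and Ecm1. Each was measured by 1 transcript cluster of the array, a set of probes for 1 gene, so 10 of 23188 transcript clusters were taken by gene symbol and none had to be chosen among several. The data are whole-transcript arrays (Clariom S) of spinal cord tissue from adult male Long-Evans rats, 1 array per rat, collected 24 h after surgery. The 4 groups were SCI/TMX+ (6 rats), SCI/TMX- (5 rats), Sham/TMX+ (6 rats) and Sham/TMX- (5 rats). SCI stands for a severe contusion of the thoracic cord, made by a 10 g rod dropped from 50 mm onto the cord after laminectomy. TMX stands for tamoxifen, a selective estrogen receptor modulator, given once into the peritoneum at 5 mg/kg 30 min after surgery, and TMX- rats received its vehicle of ethanol and corn oil. Sham rats had soft tissue surgery and no laminectomy, so a difference between SCI and sham rats includes the removal of bone. All rats received the same anesthesia and tramadol. Values are log2 signals, on which a step of 1 is a doubling, and each is compared only between groups of the same gene, since probes of different genes differ in brightness.

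Matricellular proteins are secreted into the extracellular matrix but do little to hold it together. They bind integrins, growth factors and structural proteins and so alter how cells adhere, migrate and respond to signals, and many are scarce in adult tissue and abundant during development and wound repair. In the injured central nervous system they are known from astrocytes, microglia, infiltrating macrophages, vascular cells, meningeal fibroblasts and platelets. The tissue here was bulk cord, in which more cells of a type and more RNA per cell cannot be told apart.

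Array medians lay between 5.41 and 5.47. Injured and sham rats separated on the first principal component of all clusters. On the second, 2 SCI/TMX- rats stood apart from every other rat, 13c at 23.0 and 15c at 41.7, against -23.7 (SCI/TMX+ rat 11b) to 9.96 in the other 20. Several results that use these 2 rats, though not all, are given with and without them. The mean log2 signal of 5 oligodendrocyte markers (Mbp, Mog, Mag, Mobp and Olig2) was 10.4 to 10.7 in injured rats and 10.7 to 11.0 in sham rats, and that of 7 neuronal markers was 8.88 to 9.26 in injured rats and 9.45 to 9.59 in sham rats. No other tissue was measured beside the cord, so the identity of the tissue was not tested.

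Ccn1 and Ccn2 are known target genes of the TEAD factors, the DNA-binding partners of the co-activator YAP, so the sequences before the start sites were searched for their element and for 4 others. RefSeq promoters of the rat assembly GRCr8 were found for 9 of the 10 genes, and Thbs2 was not matched. In the 250 bases before the start site, the letters GGAATG on either strand were present in 4 of these 9 genes (Ccn1, Ccn2, Thbs1 and Sparc), against 11.8% of 27457 promoters. Ccn2 held 3 of them, at 166, 101 and 92 bases before the start. The AP-1 element TGANTCA was found only in Ecm1, 83 bases before its start, among these 9, and in 6.36% of all promoters. No match to the CArG box of serum response factor (1.5% of all promoters) or to the estrogen response half-site AGGTCA (13.7%) was found in these windows, and TATAAA was in 6 of the 9 (13.1%). Both strands were searched, and none of the matches in these 9 windows overlapped another. The stretches that hold the TEAD or AP-1 letters read as follows, 5′ to 3′ along the gene's strand, with those letters in capitals (CATTCC is GGAATG read on the opposite strand).
Ccn2: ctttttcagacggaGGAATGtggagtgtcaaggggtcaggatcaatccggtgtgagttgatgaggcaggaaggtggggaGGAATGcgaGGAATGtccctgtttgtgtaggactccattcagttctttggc
Ccn1: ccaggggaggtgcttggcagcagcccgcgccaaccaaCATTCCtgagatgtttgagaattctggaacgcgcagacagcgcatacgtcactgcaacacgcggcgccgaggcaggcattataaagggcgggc
Thbs1: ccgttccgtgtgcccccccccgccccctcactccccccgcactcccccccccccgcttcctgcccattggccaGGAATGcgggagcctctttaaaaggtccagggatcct
Sparc: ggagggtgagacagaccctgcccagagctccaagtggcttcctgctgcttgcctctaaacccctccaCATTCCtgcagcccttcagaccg
Ecm1: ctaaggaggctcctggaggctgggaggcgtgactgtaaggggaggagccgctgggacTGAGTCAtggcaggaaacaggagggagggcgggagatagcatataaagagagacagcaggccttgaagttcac
Their places in GRCr8 are chr1:22624665-22624794, minus strand for Ccn2, chr2:237225710-237225839, minus strand for Ccn1, chr3:125510130-125510239, plus strand for Thbs1, chr10:40038827-40038916, minus strand for Sparc and chr2:185981617-185981746, minus strand for Ecm1. A match is a description of the letters and not a binding site.

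Most of the 10 genes were higher after contusion, with or without tamoxifen. An injury effect was called where the adjusted p was below 0.05 and the log2 fold change exceeded 1 in size, the study's own thresholds. The 10 genes were chosen with earlier results of these data known, so the shares of all clusters beside their counts are a description. By this rule 6 of the 10 were higher in SCI/TMX- than in Sham/TMX- rats (Ccn1, Thbs1, Thbs2, Tnc, Postn and Fbln2), against 1.98% of all clusters, and none was lower, against 1.07%. By the adjusted p alone 9 were higher, against 12.8%, and for 9 every SCI/TMX- rat lay above every Sham/TMX- rat, against 8.96%. The median log2 fold change of the 10 was 1.73, and that of all clusters was -0.01. Under tamoxifen, 6 of the 10 were called higher in SCI/TMX+ than in Sham/TMX+ rats, against 1.93% of all clusters, and none lower, against 1.11%. These 6 held Ecm1 in place of Postn. By the adjusted p alone 9 were higher, against 14.3%, and 1, Sparc, was lower, against 19.7%. The groups did not overlap for 7 genes that were higher, against 9.16%, and for Sparc, which was lower, against 11.7%. The median log2 fold change was 1.17 over the 10 genes and -0.02 over all clusters.

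**Figure D1:**
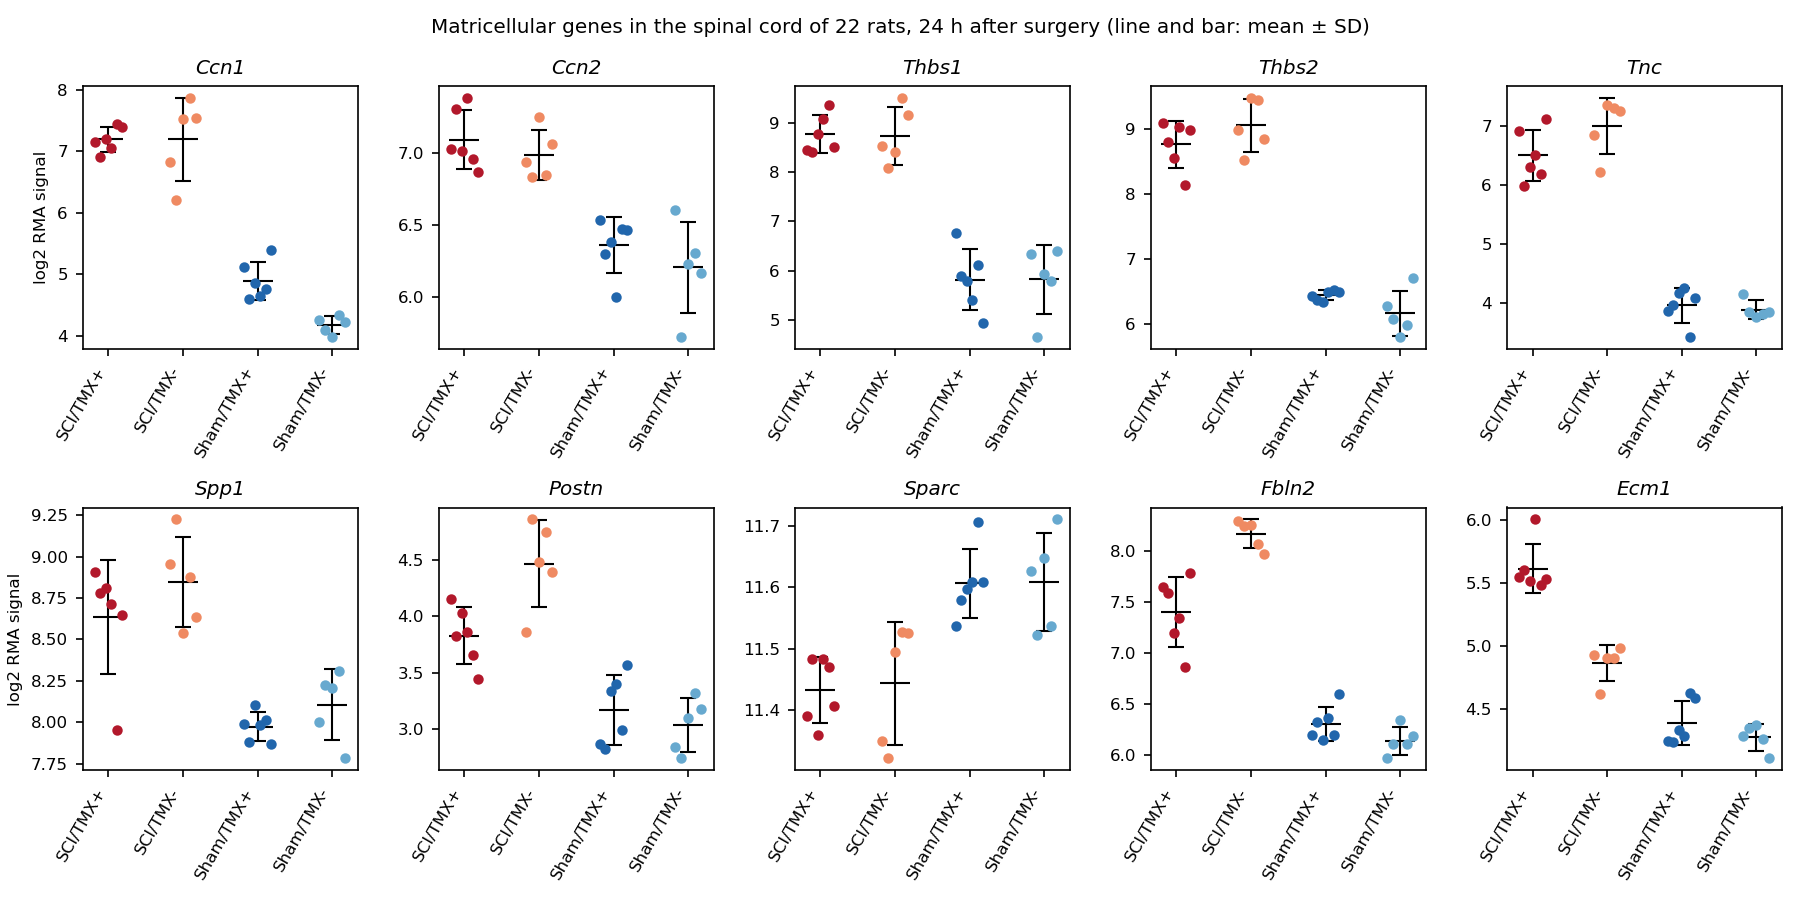
Log2 signal (y axis, its own range for each gene and not starting at 0) of the 10 matricellular genes in each of 22 rats, by group; lines and bars are the mean ± SD of 6, 5, 6 and 5 rats. Compared at the same treatment, injured rats lie above sham rats for 9 genes, with some overlap for Spp1 and Postn under tamoxifen, and Sparc lies lower in SCI/TMX+ than in Sham/TMX+ rats.

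The CCN family members Ccn1 and Ccn2 are integrin ligands of early wound repair, and both are widely used as target genes of YAP and TEAD. Ccn1 ran from 6.90 to 7.44 in SCI/TMX+ rats, with a median of 7.17, and was 6.83, 6.20, 7.51, 7.86 and 7.55 in the 5 SCI/TMX- rats. Among sham rats it ran from 4.59 to 5.39 with tamoxifen, with a median of 4.80, and was 4.25, 4.09, 3.98, 4.33 and 4.21 without it. The injured rats were all above the sham rats, and the 2 lowest SCI/TMX- values were those of 13c and 15c, the rats that stood apart. Ccn1 was 8.10-fold higher in SCI/TMX- than in Sham/TMX- rats (log2 fold change 3.02 ± 0.21 SE, adjusted p = 5.86e-11), and 4.92-fold higher in SCI/TMX+ than in Sham/TMX+ rats (2.30 ± 0.19, adjusted p = 9.51e-10). Without 13c and 15c the log2 fold change in rats without tamoxifen was 3.47.

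Ccn2, also known as connective tissue growth factor, changed far less. Its values in SCI/TMX+ rats were 6.87 to 7.38 with a median of 7.02, and in SCI/TMX- rats 6.94, 6.84, 7.25, 6.85 and 7.06. The sham values were 6.00 to 6.53 with a median of 6.42 under tamoxifen, and 6.60, 5.72, 6.23, 6.30 and 6.16 without it. All injured rats again lay above all sham rats. The log2 fold change was 0.78 ± 0.14 in rats without tamoxifen (adjusted p = 6.36e-05) and 0.74 ± 0.12 in rats with it (adjusted p = 3.61e-05), both past the adjusted p and short of a log2 fold change of 1.

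Thrombospondins 1 and 2 bind CD36 and CD47, restrain vessel growth and, when made by astrocytes, promote synapse formation; thrombospondin 1 also activates latent TGF-beta and is stored in platelets. In SCI/TMX+ rats Thbs1 ran from 8.42 to 9.38 with a median of 8.65, and in SCI/TMX- rats it was 8.53, 8.08, 8.42, 9.51 and 9.17. Sham/TMX+ rats had 4.94 to 6.76 with a median of 5.84, and Sham/TMX- rats 6.33, 4.65, 5.93, 5.79 and 6.40. The sham values were spread widely in both groups (SD 0.62 with tamoxifen and 0.70 without), and no injured rat came down to them. Thbs1 was 7.58-fold higher in SCI/TMX- than in Sham/TMX- rats (2.92 ± 0.32, adjusted p = 9.82e-08) and 7.80-fold higher in SCI/TMX+ than in Sham/TMX+ rats (2.96 ± 0.29, adjusted p = 1.23e-08).

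Thbs2 was 8.13 to 9.08 in SCI/TMX+ rats, with a median of 8.88, and 8.98, 8.52, 9.47, 9.44 and 8.85 in SCI/TMX- rats. It was 6.34 to 6.52 in Sham/TMX+ rats, with a median of 6.46, and 6.27, 6.07, 5.80, 5.98 and 6.70 in Sham/TMX- rats. Injured and sham rats were again apart, and the Sham/TMX+ rats lay within an SD of 0.07. The difference was 7.41-fold in rats without tamoxifen (2.89 ± 0.18, adjusted p = 8.33e-12, the smallest of the 10 genes in that comparison) and 4.98-fold in rats with it (2.32 ± 0.17, adjusted p = 5.72e-11).

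Tenascin C and periostin are linked in repair tissue, where periostin helps to anchor tenascin C to fibronectin and collagen. Tnc, made by reactive astrocytes and stromal cells, ran from 5.98 to 7.13 in SCI/TMX+ rats with a median of 6.41, and was 6.85, 6.23, 7.36, 7.31 and 7.26 in SCI/TMX- rats. It ran from 3.43 to 4.26 in Sham/TMX+ rats with a median of 4.03, and was 4.17, 3.86, 3.77, 3.82 and 3.85 in Sham/TMX- rats. All injured rats were above all sham rats. Tnc was 8.62-fold higher in SCI/TMX- than in Sham/TMX- rats (3.11 ± 0.21, adjusted p = 2.30e-11). With tamoxifen it was 5.81-fold higher in SCI/TMX+ than in Sham/TMX+ rats (2.54 ± 0.19, adjusted p = 1.06e-10).

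Postn, an integrin ligand known from scar-forming fibroblasts in mice, had a mean signal over the 22 arrays below the median of all clusters, as did Tnc and Ecm1. It ran from 3.45 to 4.16 in SCI/TMX+ rats with a median of 3.84, and was 3.86, 4.86, 4.48, 4.74 and 4.39 in SCI/TMX- rats. Sham/TMX+ rats had 2.83 to 3.57 with a median of 3.17, and Sham/TMX- rats 2.85, 2.74, 3.10, 3.32 and 3.18. Every SCI/TMX- rat was above every Sham/TMX- rat, whereas the groups with tamoxifen overlapped. Postn was called higher in SCI/TMX- than in Sham/TMX- rats (1.43 ± 0.17, adjusted p = 4.89e-07), and in SCI/TMX+ against Sham/TMX+ rats it passed the adjusted p but not the minimum fold change (0.66 ± 0.16, adjusted p = 0.00163). The difference between these effects is the interaction given below, which did not pass its test.

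Spp1 encodes osteopontin, a ligand of integrins and CD44 that macrophages and activated microglia secrete. Its log2 signal was 7.95 to 8.90 in SCI/TMX+ rats, with a median of 8.75, and 8.96, 9.22, 8.54, 8.88 and 8.64 in SCI/TMX- rats. In sham rats it was 7.87 to 8.10 with tamoxifen, with a median of 7.99, and 8.00, 8.23, 8.21, 8.31 and 7.78 without it. The single rat at 7.95, SCI/TMX+ 11b, lay among the Sham/TMX+ rats, and the other 5 SCI/TMX+ rats were above all of them. The log2 fold change was 0.74 ± 0.15 without tamoxifen (adjusted p = 0.000286) and 0.66 ± 0.13 with it (adjusted p = 0.000302), neither beyond 1.

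Sparc, a collagen-binding protein that many glial and vascular cells express, was the one gene of the 10 that was lower after injury. It was 11.36 to 11.48 in SCI/TMX+ rats, with a median of 11.44, and 11.35, 11.32, 11.50, 11.53 and 11.53 in SCI/TMX- rats, against 11.54 to 11.71 in Sham/TMX+ rats, with a median of 11.60, and 11.63, 11.52, 11.65, 11.54 and 11.71 in Sham/TMX- rats. SCI/TMX+ rats were all below Sham/TMX+ rats, and the groups without tamoxifen overlapped slightly. The log2 fold change was -0.17 ± 0.07 with tamoxifen (adjusted p = 0.0423) and -0.16 ± 0.07 without it (adjusted p = 0.0886), which is 1.13-fold and 1.12-fold lower. Without 13c and 15c the second was -0.09 (adjusted p = 0.418).

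Fbln2 encodes fibulin 2, a glycoprotein that binds fibronectin, fibrillin and basement membrane proteins. It ran from 6.86 to 7.78 in SCI/TMX+ rats, with a median of 7.47, and was 8.30, 8.25, 8.26, 8.07 and 7.97 in SCI/TMX- rats. The sham rats had 6.14 to 6.60 with tamoxifen, with a median of 6.26, and 5.97, 6.11, 6.34, 6.10 and 6.19 without it. Injured rats lay above sham rats in both comparisons. The gene was 4.08-fold higher in SCI/TMX- than in Sham/TMX- rats (2.03 ± 0.13, adjusted p = 1.99e-11) and 2.14-fold higher in SCI/TMX+ than in Sham/TMX+ rats (1.10 ± 0.12, adjusted p = 8.78e-08).

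Ecm1 encodes extracellular matrix protein 1, a secreted glycoprotein that binds other matrix proteins and in mice restrains the activation of latent TGF-beta. It ran from 5.49 to 6.01 in SCI/TMX+ rats, with a median of 5.54, and was 4.93, 4.62, 4.90, 4.90 and 4.98 in SCI/TMX- rats. It ran from 4.24 to 4.63 in Sham/TMX+ rats, with a median of 4.31, and was 4.28, 4.35, 4.37, 4.26 and 4.11 in Sham/TMX- rats. Its log2 fold change was 1.23 ± 0.10 in SCI/TMX+ against Sham/TMX+ rats (adjusted p = 2.79e-10) and 0.59 ± 0.11 in SCI/TMX- against Sham/TMX- rats (adjusted p = 8.69e-05). Ecm1 was therefore called higher after injury with tamoxifen only, by the minimum fold change, while both comparisons passed the adjusted p with no overlap of groups.

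**Figure D2:**
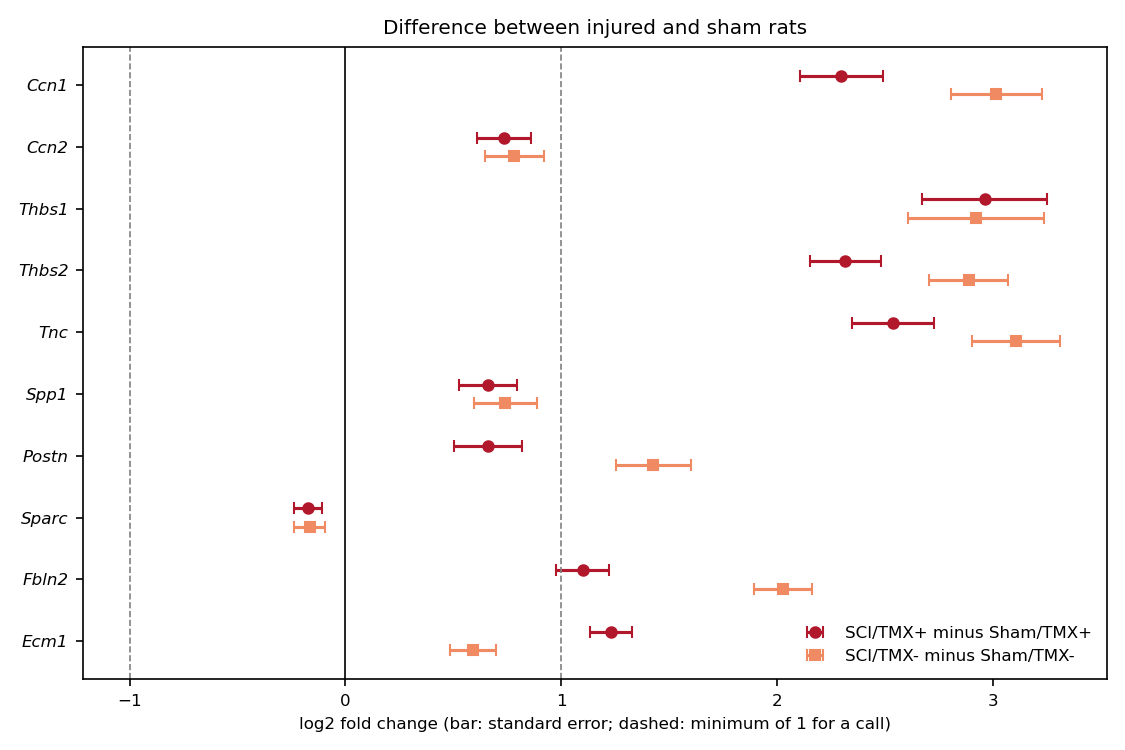
Log2 fold change of injured over sham rats (x axis) for the 10 genes, with tamoxifen (SCI/TMX+ over Sham/TMX+, circles) and without (SCI/TMX- over Sham/TMX-, squares); bars are the standard error of the limma fit and dashed lines the minimum of 1. Ccn1, Thbs1, Thbs2 and Tnc lie beyond 2 in both comparisons, Ccn2 and Spp1 between 0 and 1, and Sparc just below 0.

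Among injured rats, tamoxifen went with a higher Ecm1 and a lower Fbln2. The study's thresholds for tamoxifen were looser, an unadjusted p below 0.05 and a log2 fold change above 0.7 in size. By this rule 1 of the 10 genes was higher in SCI/TMX+ than in SCI/TMX- rats, against 0.0992% of all clusters, and 1 was lower, against 0.0302%. Both also passed an adjusted p under 0.05, which 0.0216% of all clusters (5 of 23188) did. Every SCI/TMX+ rat was above every SCI/TMX- rat for Ecm1 (0.418% of all clusters did so in this direction) and below for Fbln2 (0.367%). By an unadjusted p under 0.05 alone 4 of the 10 passed, Tnc and Postn besides these, against 10.4%.

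Ecm1 was 1.68-fold higher in SCI/TMX+ than in SCI/TMX- rats (log2 fold change 0.75 ± 0.10, adjusted p = 0.0021), and its p-value ranked 1 among 23188 clusters in this comparison. The lowest SCI/TMX+ rat was at 5.49 and the highest SCI/TMX- rat at 4.98. Fbln2 was 1.70-fold lower in SCI/TMX+ rats (-0.77 ± 0.13, adjusted p = 0.0129, rank 5), with a highest SCI/TMX+ value of 7.78 and a lowest SCI/TMX- value of 7.97. An exact permutation test over all 462 divisions of the 11 injured rats, two-sided, gave p = 0.004329 for each, the smallest it can give. Both differences lie close to the minimum of 0.7. Without 13c and 15c they were 0.69 for Ecm1 (adjusted p = 0.0281) and -0.698 for Fbln2 (adjusted p = 0.107), and neither was called. Without SCI/TMX+ rat 10b, the highest for Ecm1 at 6.01, the log2 fold change of Ecm1 was 0.67 (adjusted p = 0.00387), and without SCI/TMX- rat 15c it was 0.69 (adjusted p = 0.0139). Without SCI/TMX+ rat 11b, the lowest for Fbln2 at 6.86, that of Fbln2 was -0.66 (adjusted p = 0.0204). The adjusted p of Fbln2 was above 0.05 without SCI/TMX+ rat 9b (0.06), 13c (0.0775) or 15c (0.0651).

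Postn and Tnc were also lower on average in SCI/TMX+ rats, with overlapping groups. The log2 fold change of Postn was -0.64 ± 0.17 (adjusted p = 0.171, exact permutation p = 0.0173), the overlap being SCI/TMX- rat 13c at 3.86. Tnc had -0.50 ± 0.20 (adjusted p = 0.363, exact permutation p = 0.108), with SCI/TMX- rats 15c at 6.23 and 13c at 6.85 among the SCI/TMX+ rats. Without 13c and 15c both met the calling rule, at -0.71 for Postn (adjusted p = 0.15) and -0.81 for Tnc (adjusted p = 0.16), and neither passed the adjusted p. Postn also met the rule without SCI/TMX+ rat 7b (-0.70) or without 13c alone (-0.79). For the other 6 genes the log2 fold change lay between -0.29 for Thbs2 and 0.11 for Ccn2. Ccn1 had means of 7.19 ± 0.21 in SCI/TMX+ rats (SD, n = 6) and 7.19 ± 0.67 in SCI/TMX- rats (SD, n = 5). Its log2 fold change was -0.00147 with a 95% confidence interval of -0.42 to 0.41, and -0.45 without 13c and 15c (adjusted p = 0.336).

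**Figure D3:**
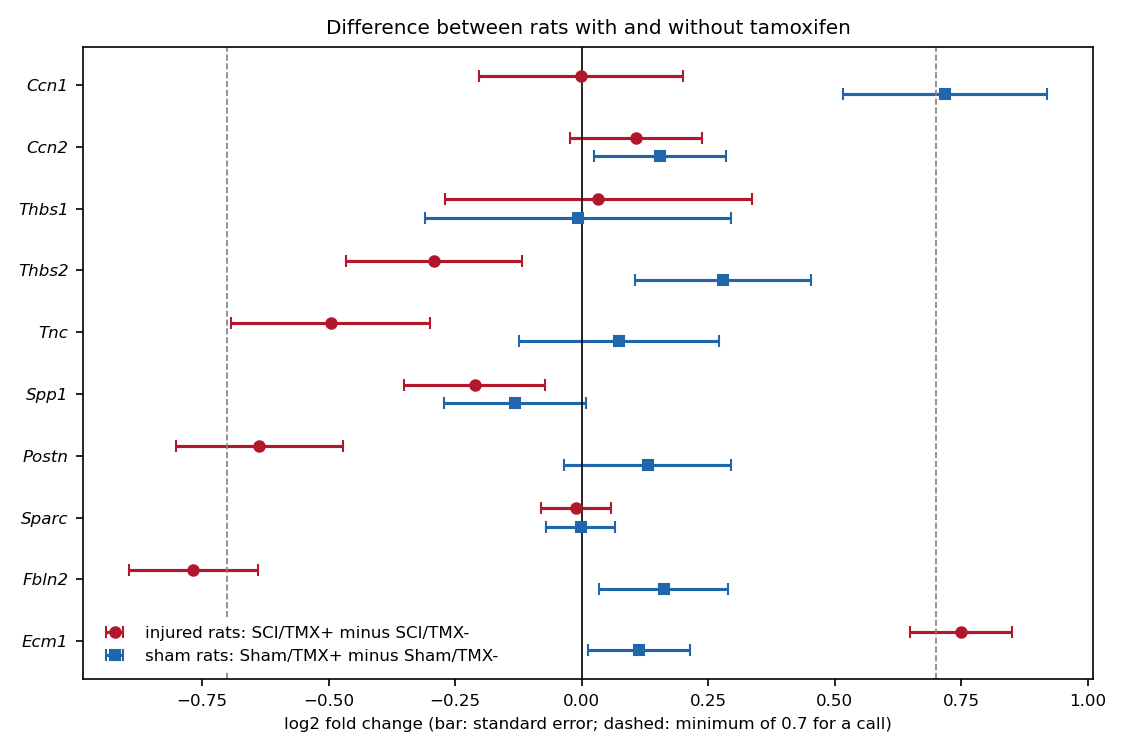
Log2 fold change of rats with over rats without tamoxifen (x axis) for the 10 genes, in injured rats (SCI/TMX+ over SCI/TMX-, circles) and in sham rats (Sham/TMX+ over Sham/TMX-, squares); bars are the standard error and dashed lines the minimum of 0.7. Ecm1 at 0.75 and Fbln2 at -0.77 pass the lines in injured rats, and Ccn1 at 0.72 does in sham rats.

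Among sham rats, Ccn1 was the one gene of the 10 called. It was 1.64-fold higher in Sham/TMX+ than in Sham/TMX- rats (0.72 ± 0.20), against 0.0216% of all clusters called higher, with means of 4.89 ± 0.31 (SD, n = 6) and 4.17 ± 0.14 (SD, n = 5). The groups did not overlap, which 0.513% of all clusters did in this direction, and the exact permutation test over 462 divisions, two-sided, gave p = 0.004329, the smallest it can give. The adjusted p of limma was 0.605. The difference is close to the minimum of 0.7, and it was 0.696 without Sham/TMX- replicate 2, 0.67 without replicate 3, 0.67 without Sham/TMX+ replicate 1 and 0.62 without replicate 6, each short of the rule. The other 9 genes differed by -0.13 (Spp1) to 0.28 (Thbs2), with adjusted p-values of 0.959 or more. In all, 20 exact tests were made, 10 genes in injured and 10 in sham rats, and 4 had an unadjusted p under 0.05.

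The interaction asks whether the tamoxifen difference in injured rats departed from that in sham rats. None of the 10 genes passed an adjusted p under 0.05, against 0% of all clusters, so no cluster of the table did. By the unadjusted p 5 of the 10 were under 0.05, against 6.84%, and 3 of these (Fbln2, Postn and Ccn1) were also beyond 0.7 in size, against 0.289%. The values were -0.93 ± 0.18 for Fbln2 (adjusted p = 0.292), -0.77 ± 0.23 for Postn (adjusted p = 0.502), -0.72 ± 0.29 for Ccn1 (adjusted p = 0.653), 0.64 ± 0.14 for Ecm1 (adjusted p = 0.327) and -0.57 ± 0.25 for Thbs2 (adjusted p = 0.679). That of Fbln2 had rank 2 and that of Ecm1 rank 9 by p-value among the 23188 clusters. Tnc, at -0.57 ± 0.28 (adjusted p = 0.73), fell short by the unadjusted p as well.

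Across the 4 groups the order of the mean levels can be read gene by gene. Of 30 steps between neighbouring groups, 3 per gene, 11 passed an adjusted p under 0.05. They were the step from injured to sham rats in 9 genes, and the steps between SCI/TMX+ and SCI/TMX- rats in Fbln2 and Ecm1. For Ccn2 and Ecm1 the first of these steps lay between SCI/TMX- and Sham/TMX+ rats. For Spp1 it lay between SCI/TMX+ and Sham/TMX- rats, so in these genes it crosses treatments as well as injury. The step between SCI/TMX+ and SCI/TMX- rats did not pass in Ccn1, Ccn2, Thbs1, Thbs2, Tnc, Spp1, Postn and Sparc. That between Sham/TMX+ and Sham/TMX- rats passed in none of the 10, and in Sparc no neighbouring step passed. Ecm1 had the order SCI/TMX+, SCI/TMX-, Sham/TMX+ and Sham/TMX-, and Fbln2 the order SCI/TMX-, SCI/TMX+, Sham/TMX+ and Sham/TMX-.

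How the genes varied together among rats of a group was measured by the deviation of each rat from its group mean over all 22 rats. None of the 45 pairs passed an adjusted p under 0.05 by 100000 permutations within groups, for Pearson's r or for Spearman's rho. The pair with the smallest p was Thbs1 and Fbln2, which ran opposite ways (r = -0.55, permutation p = 0.00265, adjusted 0.119; rho = -0.63, permutation p = 0.00291, adjusted 0.131). It was -0.72 within the 11 injured and -0.45 within the 11 sham rats, and -0.67 without the 2 rats farthest from the median of Thbs1. Ccn1 and Tnc had r = 0.60 (rho 0.45, adjusted p = 0.191 for r and 0.39 for rho), and 0.22 without 13c and 15c, the injured rats lowest in Ccn1. The paired paralogs did not stand out, with r = 0.18 for Ccn1 and Ccn2 and 0.11 for Thbs1 and Thbs2.

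**Figure D4:**
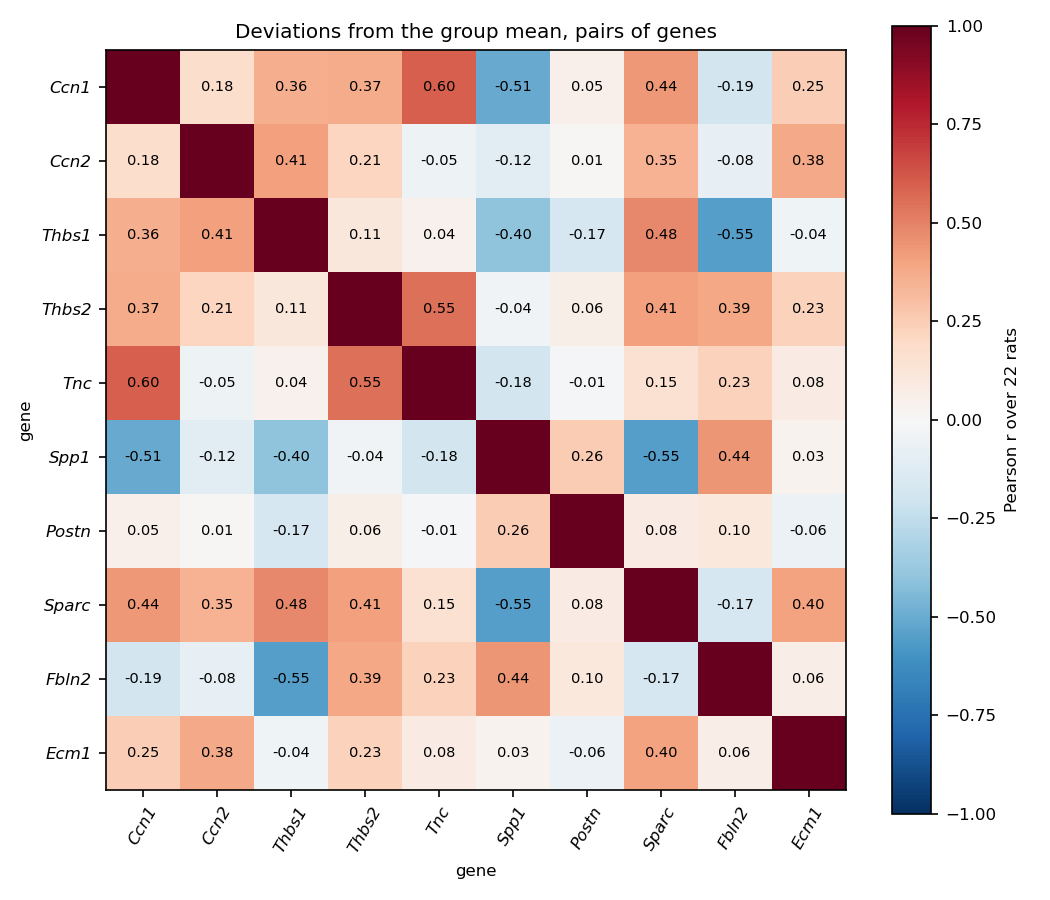
Pearson r between deviations from the group mean for each pair of the 10 genes, over 22 rats (colour from -1 to 1, value printed in each cell). The darkest cells off the diagonal are Ccn1 with Tnc at 0.60, Thbs2 with Tnc at 0.55, and Thbs1 with Fbln2 and Spp1 with Sparc, both at -0.55.

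The clusters most like each gene by the same deviations, among 15180 named ones, are given as a description, since the best of so many over 22 rats is high by selection. They were Pcbp2 for Ccn1 (r = 0.86), Tgfbr3 for Ccn2 (0.85), Gtpbp1 for Thbs1 (0.83), Slamf6 for Thbs2 (0.82), Fzd5 for Tnc (0.85) and Serpinh1, a collagen chaperone, for Spp1 (0.87). For Postn it was Pfkfb1 (0.82), for Sparc Ano1 (0.87), for Fbln2 Slc22a25 (0.82) and for Ecm1 the olfactory receptor cluster Or5ac25 (0.86).

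Of 25 measured of 28 listed relatives in the same families, 3 were called higher and 1 lower in SCI/TMX- than in Sham/TMX- rats, with a median log2 fold change of -0.05, and 3 were higher and 2 lower in SCI/TMX+ than in Sham/TMX+ rats, with a median of 0.01. Of all clusters, 1.98% were called higher and 1.07% lower in the first comparison, and 1.93% and 1.11% in the second. Mgp, the calcification inhibitor matrix Gla protein, was higher in both (2.33 ± 0.13 in SCI/TMX+ over Sham/TMX+, adjusted p = 1.24e-12, and 2.09 ± 0.15 in SCI/TMX- over Sham/TMX-, adjusted p = 6.70e-11). Efemp2, fibulin 4 of elastic fibres, was higher by 1.39 ± 0.14 with tamoxifen and 1.26 ± 0.16 without it, and Angptl4, a secreted inhibitor of lipoprotein lipase, by 1.50 ± 0.17 and 1.30 ± 0.19. Ecm2 was lower by the same rule in both, at -1.66 ± 0.24 with tamoxifen and -1.41 ± 0.26 without it. Tnr, the tenascin of perineuronal nets, was called lower with tamoxifen (-1.04 ± 0.09) and passed only the adjusted p without it (-0.67 ± 0.09). Tnc and Tnr, 2 tenascins, thus differed from sham in opposite directions.

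Of 21 measured of 26 listed receptors for these proteins, 7 were called higher and none lower in each injury comparison, with a median of 0.23 with tamoxifen and 0.27 without it. The shares of all clusters were 1.93% higher and 1.11% lower with tamoxifen, and 1.98% and 1.07% without it. The 7 were Cd36, the scavenger receptor that binds thrombospondins, Cd44, which binds osteopontin and hyaluronan, the integrin chains Itga5, Itgam and Itgb2, the syndecan Sdc1 and Anxa2, annexin A2, a tenascin C receptor. Cd44 was higher by 1.79 ± 0.11 in SCI/TMX+ over Sham/TMX+ rats (adjusted p = 2.13e-12) and by 2.11 ± 0.12 in SCI/TMX- over Sham/TMX- rats (adjusted p = 7.27e-13). Cd36 was the only receptor on the list called in injured rats for tamoxifen, at -0.84 ± 0.18 in SCI/TMX+ over SCI/TMX- rats (adjusted p = 0.109), with means of 6.04 ± 0.34 in SCI/TMX+ rats and 6.88 ± 0.45 in SCI/TMX- rats (SD, n = 6 and 5). Of all clusters 0.0302% were called lower in that comparison.

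**Figure D5:**
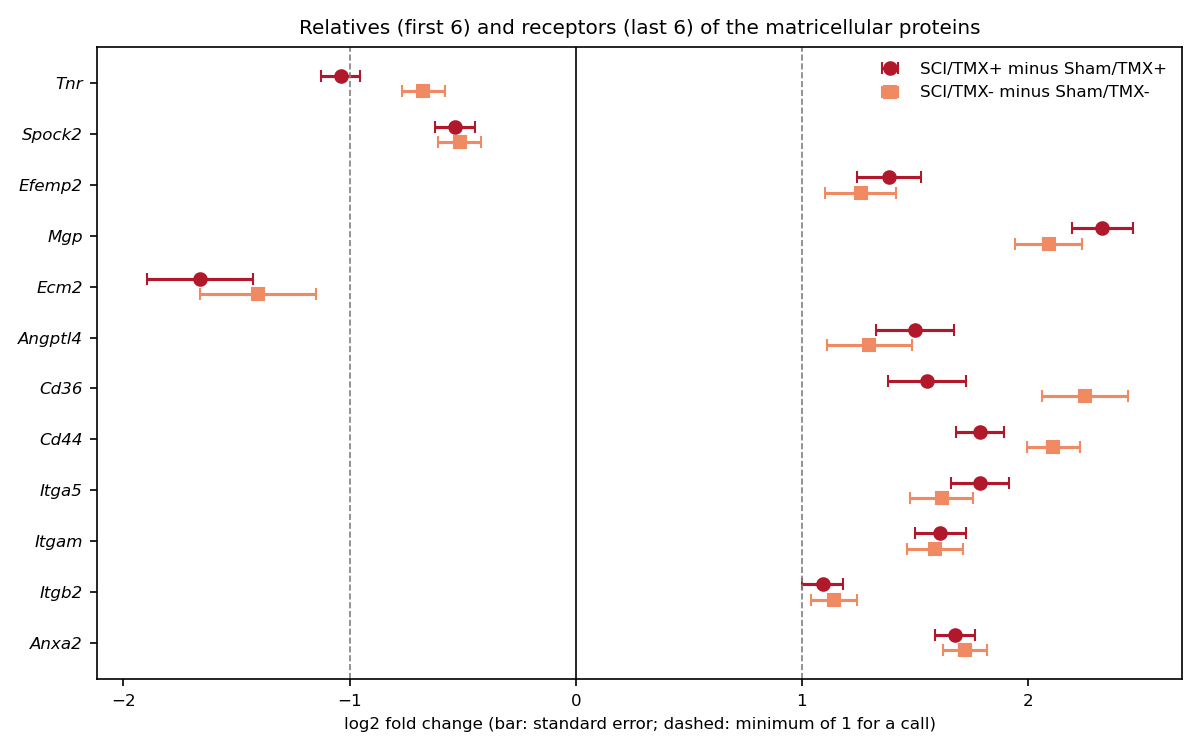
Log2 fold change of injured over sham rats (x axis) for 6 relatives and 6 receptors, chosen as those with the largest test statistics of their list, with tamoxifen (circles) and without (squares); bars are the standard error and dashed lines the minimum of 1. The 6 receptors lie above 1 in both comparisons, and Tnr, Spock2 and Ecm2 below 0.

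Genes of the pathways known to control this family were described in the same way, beside the same shares of all clusters. These were 1.93% called higher and 1.11% lower with tamoxifen, and 1.98% and 1.07% without it. Of 14 measured of 20 YAP/TEAD target genes, 4 were called higher and none lower in both injury comparisons (Axl, F3, Nt5e and Myof), with medians of 0.12 with tamoxifen and 0.29 without it. By the adjusted p alone 8 of the 14 passed in each comparison, and they went both ways. By that looser rule 14.3% of all clusters were higher and 19.7% lower with tamoxifen. Without it 12.8% were higher, and the share that were lower was not counted. Fjx1 was lower by -0.79 ± 0.10 with tamoxifen (adjusted p = 1.36e-06) and -0.84 ± 0.11 without it (adjusted p = 2.79e-06), short of the minimum fold change. Of the 20 genes of serum response factor and the immediate early response, all measured, 11 were called higher with tamoxifen and 12 without it, none lower, with medians of 1.14 and 1.11. These held Junb (2.11 ± 0.13 with tamoxifen and 1.87 ± 0.14 without), Jun (1.43 and 1.53) and Fosl2 (1.43 and 1.51), which encode parts of AP-1. Of 15 measured of 17 TGF-beta genes, 2 were called higher and 1 lower in each comparison, with medians of 0.57 with tamoxifen and 0.59 without it. The lower one was Bmp4, a bone morphogenetic protein, at -1.27 ± 0.16 with tamoxifen (adjusted p = 7.12e-07) and -1.25 ± 0.18 without it (adjusted p = 4.47e-06). Tgif1 (0.79 ± 0.13 with tamoxifen and 0.95 ± 0.14 without) and Bmp1 (0.73 ± 0.09 and 0.73 ± 0.10) were higher, short of the minimum fold change. By the adjusted p alone 13 of the 15 passed in each comparison, and they went both ways.

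Among structural and provisional matrix genes, 26 measured of 33, 5 were called higher and 2 lower in SCI/TMX+ over Sham/TMX+ rats, and 8 higher and none lower in SCI/TMX- over Sham/TMX- rats, with medians of 0.32 and 0.41. The shares of all clusters were 1.93% higher and 1.11% lower with tamoxifen, and 1.98% and 1.07% without it. Fn1, fibronectin, was higher by 1.94 ± 0.18 with tamoxifen and 1.85 ± 0.19 without it, and Lox, the collagen cross-linking lysyl oxidase, by 2.60 ± 0.17 and 2.55 ± 0.19. Vcan, the proteoglycan versican, was called only without tamoxifen, at 1.04 ± 0.10 against 0.58 ± 0.09 with it, and without SCI/TMX- rat 17c or 18c it was as low as 0.987, short of the rule. None of the listed genes of these 4 pathways was called for tamoxifen in injured or in sham rats.

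Markers of other cell types moved with injury as well. The mean log2 signal of 8 microglia and macrophage markers was 6.98 to 7.25 in SCI/TMX+ and 6.80 to 7.26 in SCI/TMX- rats, against 6.20 to 6.50 in Sham/TMX+ and 6.09 to 6.48 in Sham/TMX- rats. Its members went both ways at an adjusted p under 0.05 in each comparison, with Msr1 (3.47 ± 0.17 with tamoxifen and 3.42 ± 0.19 without), Cd163, Cd68, Aif1 and Lyz2 higher, and P2ry12 (-0.77 ± 0.15 and -1.002 ± 0.16), Tmem119 and Cx3cr1, which mark resting microglia, lower. The 4 red blood cell markers were at 7.69 to 8.34 in SCI/TMX+ and 7.29 to 8.40 in SCI/TMX- rats, against 5.22 to 6.36 in Sham/TMX+ and 5.32 to 6.23 in Sham/TMX- rats. For 5 measured neutrophil markers the values were 4.33 to 4.77 in SCI/TMX+ and 4.42 to 4.99 in SCI/TMX- rats, against 3.31 to 3.54 in Sham/TMX+ and 3.28 to 3.93 in Sham/TMX- rats. None of these 3 list means overlapped between injured and sham rats. Among the neutrophil markers S100a8, S100a9 and Mmp8 passed the adjusted p in both comparisons, all higher, and Camp and Retnlg in neither. The 4 measured platelet markers were 4.51 to 4.83 in SCI/TMX+ against 4.19 to 4.46 in Sham/TMX+ rats, and they touched without tamoxifen (4.49 to 4.86 in SCI/TMX- against 4.21 to 4.50 in Sham/TMX- rats). Of these 4 only Pf4 passed the adjusted p, in both comparisons. The 5 measured astrocyte markers had a lower mean in all injured than in all sham rats, at 8.73 to 9.10 in SCI/TMX+ and 8.87 to 9.09 in SCI/TMX- rats, against 9.35 to 9.54 in Sham/TMX+ and 9.38 to 9.48 in Sham/TMX- rats. Aqp4, Aldh1l1, Slc1a3 and Gja1 passed the adjusted p in both comparisons, all lower, and Gfap, at 0.06 ± 0.08 with tamoxifen and 0.20 ± 0.08 without it, in neither. The mean of the 7 endothelial markers overlapped (6.49 to 6.88 in SCI/TMX+ and 6.42 to 6.92 in SCI/TMX- rats, against 6.38 to 6.61 in Sham/TMX+ and 6.21 to 6.68 in Sham/TMX- rats), and so did that of the 4 measured Schwann cell markers (7.32 to 7.90 in SCI/TMX+ and 7.57 to 7.82 in SCI/TMX- rats, against 7.57 to 8.11 in Sham/TMX+ and 7.58 to 8.35 in Sham/TMX- rats). Endothelial members went both ways at an adjusted p under 0.05 in each comparison. Pecam1 (1.27 ± 0.15 with tamoxifen and 1.30 ± 0.17 without) and Cdh5 (0.91 ± 0.15 and 0.74 ± 0.16) were higher, and Emcn (-0.42 ± 0.12 and -0.85 ± 0.13) was lower. The Schwann cell markers Prx, Pmp22 and Pou3f1 were lower by that p with tamoxifen, and none passed without it. The mean of the 8 fibroblast and meningeal markers overlapped throughout (7.36 to 8.04 in SCI/TMX+ and 7.20 to 7.79 in SCI/TMX- rats, against 7.53 to 7.96 in Sham/TMX+ and 7.18 to 7.88 in Sham/TMX- rats), as did those of 7 skeletal muscle and 4 cartilage and bone markers. Of the 8, Lum was lower at an adjusted p under 0.05 in both comparisons (-1.07 ± 0.21 with tamoxifen and -0.88 ± 0.23 without). Col1a2 was lower with tamoxifen only (-0.35 ± 0.12), and Slc6a13 without it only (-0.89 ± 0.31). All these are means of log2 signals, on which no marker is at 0. By the adjusted p alone, 14.3% of all clusters were higher and 19.7% lower with tamoxifen, and 12.8% were higher without it. The part of these cells in the levels of the 10 genes was not tested.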

How the data were processed

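Spinal cord segments of 20 mm were taken 24 h after surgery, and only RNA with an integrity number of at least 7 was hybridized. The study randomized 24 rats and dropped 1 sample each of Sham/TMX- and SCI/TMX- for RNA of low quality. The authors deposited 1 table of log2 values, which the submitters' processing notes credit to RMA in oligo 1.56 (background correction, quantile normalization and a summary of probes), with limma 3.48.3 for their tests. Which genome build underlies the array's clusters is not given in the sources used here, so no cluster has a position.

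The deposited log2 values were used unchanged. The platform annotation named 15049 clusters, a further 141 were named from tables of the study, Fbln2 among them, and 7998 stayed unnamed. No member shares its values with another cluster. With limma 3.58.1 in R 4.3.3, the means of the 4 groups were fitted to all 23188 clusters, with no filter on low values (18 residual and 6.99 prior degrees of freedom), and p-values were adjusted by Benjamini and Hochberg over all clusters. Errors in the text are standard errors of this fit unless marked SD. Thresholds for calls follow the study's methods. Exact permutation tests used all divisions of 11 rats, and the number of rats limits the precision.

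The members, gene lists, motifs and alternatives were chosen with earlier results of these data known. Genes outside the 10 were named by a rule: up to 6 relatives and 6 receptors with the largest moderated statistics over all comparisons, up to 4 genes of each other list with the largest in SCI/TMX- over Sham/TMX-, and the clusters most like each gene, of which the first is given. F3, Sdc1, Fn1 and the single cell type markers named with their own results fall outside it and were named after their values were seen. For 1 gene chosen this way no result is reported here, though list counts include it. The fit was tested on simulated data. Same-numbered rats of different groups did not deviate together, so replicate numbers were not used as pairs.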

Additional observations from a re-analysis of the deposited data

Results flagged for a closer look

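In 4 of the 40 sets of values (10 genes in 4 groups) 1 rat lay far from the others of its group by Dixon's criterion, which chance passes in about 1 of 20 sets. Ecm1 was 6.01 in SCI/TMX+ rat 10b, where the nearest of the other 5 rats was at 5.61, and 4.62 in SCI/TMX- rat 15c, where the nearest was at 4.90. Spp1 was 7.95 in SCI/TMX+ rat 11b, with the nearest at 8.65, and this is the rat in which Fbln2 and Thbs2 were lowest and Thbs1 and Ccn1 highest of its group. Tnc was 4.17 in Sham/TMX- rat 1a, with the nearest at 3.86.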

How the results depend on the processing

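The 6 and 6 members called after injury with and without tamoxifen were the same in number under trend and robust priors, median centring, repeated quantile normalization, array weights, a replicate block, fits of 2 groups and removal of 13c and 15c. Leaving out clusters of low signal, which removes Tnc, Postn and Ecm1, left 4 and 4. With no minimum fold change, 10 members were called in SCI/TMX+ over Sham/TMX+ and 4 in SCI/TMX+ over SCI/TMX-. The second count was 1 with the signal filter and 1 with array weights, under which Fbln2 fell to -0.67 (adjusted p = 0.104), and 1 to 3 over single arrays left out. The sham tamoxifen count was 0 with the replicate block, where Ccn1 had 0.65, and 0 by adjusted p, and 0 to 1 over single arrays. The interaction count was 3 at an unadjusted p with a difference beyond 0.7, against 0.289% of all clusters. Exact tests under 0.05 numbered 7 without 13c and 15c (Ccn1, Tnc, Postn, Sparc, Fbln2 and Ecm1 in injured rats, each at p = 0.0238, the smallest possible, and Ccn1 in sham rats). At the smallest p the groups do not overlap. The share of all clusters that do so without 13c and 15c was not measured, so this count cannot be set against it. Pairs passing the adjusted correlation numbered 0 to 2 over single arrays, 1 without Sham/TMX- rat 3a or 4a and 2 without 6a. Signs of members with differences near 0 turned: Sparc in sham rats to 0.0285 (quantile), 0.00244 (array weights) and 0.000172 (replicate block), Thbs1 in injured rats to -0.22 (array weights) and -0.26 (without 13c and 15c), its interaction to -0.18 and -0.25, that of Spp1 to 0.0932 and 0.0834, and Thbs1 in sham rats to 0.10 (replicate block). Over single arrays, tamoxifen differences in injured rats spanned -0.25 to 0.17 for Ccn1, -0.13 to 0.23 for Thbs1, -0.0423 to 0.0093 for Sparc, -0.79 to -0.54 for Postn, -0.84 to -0.66 for Fbln2 and 0.67 to 0.78 for Ecm1, those in sham rats -0.30 to 0.17 for Thbs1, -0.0239 to 0.0233 for Sparc and 0.62 to 0.78 for Ccn1, and interactions -0.15 to 0.0737 for Ccn2, -0.13 to 0.33 for Thbs1, -0.16 to 0.0566 for Spp1 and -0.0401 to 0.0122 for Sparc. The cause of these changes was not tested. Deviations of same-numbered rats correlated at a median of 0.02 over 31 pairs (-0.21 to 0.23), against 0.00063 over 150 other pairs, so the pairing was not used. Each gene has 1 cluster, so no other cluster could be tried.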
